A study of Mus musculus with 10 samples.

Results

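The circadian clock genes Arntl, Clock, Per1, Per2, Per3, Cry1, Cry2, Nr1d1, Nr1d2 and Dbp were followed in the livers of control and Dicer mutant mice. All probe sets whose symbol in the platform's probe table is 1 of these 10 genes were taken, which gave 19 of the 25958 probe sets tested. Each of the 10 genes had at least 1 probe set, among the 12366 genes measured. The arrays came from the livers of 5 control mice and 5 mutant mice, all 28 days old, of mixed strain and fasted for 5 hours. The mutants (DicerloxP/loxP;Afp-Cre+) carried loxP-flanked alleles of the microRNA-processing enzyme gene Dicer on both chromosomes and an Afp-Cre transgene. That transgene is driven by Afp, a gene of fetal hepatocytes. The labels do not give the genotype of the controls beyond their name, nor sex, litter or the clock time at which livers were taken.

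The clock is a loop of transcription factors that runs in nearly every cell and is strong in hepatocytes. ARNTL (also called BMAL1) and CLOCK bind E-box sequences and switch on the Per and Cry genes, whose proteins return to the nucleus and block ARNTL and CLOCK. In a linked loop the REV-ERB repressors, encoded by Nr1d1 and Nr1d2, bind ROR elements and hold down Arntl, Clock and Cry1, while DBP, an output of the E-box loop, acts on D-boxes.

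The binding elements named above could be seen in the RefSeq sequence of several members, shown here because they mark the arms of the loop. A window from 250 bases before to 50 after each gene start (assembly GRCm38.p6, 13 windows) was found for 9 of the 10 members, all but Per2. Both strands were searched for the E-box CACGTG, the D-box as TTATGTAA or TTACGTAA, the ROR element as TAGGTCA preceded by an A and 2 bases of any kind and the cAMP element TGACGTCA. Of the 32851 windows in the table, 7.15% held this E-box, 1.06% a D-box, 0.700% a ROR element and 1.79% a cAMP element. Exact matches were present in 4 members and are in capitals below, with each stretch on the strand of its gene. Clock, Cry2, Nr1d1, Nr1d2 and Dbp had no match in their windows. Per1 and Cry1 each held an E-box, starting at positions -166 and -60 from the gene start. Per3 held 2 D-boxes, at -205 and -158, and Arntl a ROR element that begins at base 28 after the start in 1 of its windows. Ciart, which encodes a repressor of ARNTL and CLOCK and was measured beside the members, held 3 E-boxes, at -116, -58 and -44. Other genes of the clock pathway also had matches, not printed here: E-boxes in Tef, Bhlhe41 and Sirt1, a D-box in Timeless and a cAMP element in Hlf. A match is a description of the letters, and binding was not measured.
Per1, chr11:69098771-69098800, plus strand: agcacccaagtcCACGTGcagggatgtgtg
Cry1, chr10:85185097-85185126, minus strand: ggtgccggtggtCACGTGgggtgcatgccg
Per3, chr4:151044804-151044882, minus strand: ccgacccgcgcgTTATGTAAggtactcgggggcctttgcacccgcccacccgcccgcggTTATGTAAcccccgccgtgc
Arntl, chr7:113207528-113207557, plus strand: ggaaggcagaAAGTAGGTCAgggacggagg
Ciart, chr3:95882255-95882356, minus strand: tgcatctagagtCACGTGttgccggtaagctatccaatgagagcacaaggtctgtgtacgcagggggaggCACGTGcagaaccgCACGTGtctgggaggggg

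Values are on what was read as the log2 scale of the deposited table, so a difference of 1 is a doubling if that scale holds, and levels are not compared between genes. Dicer1 itself checked the labels: its 2 probe sets ran from 7.91 to 8.18 in controls and from 5.42 to 7.20 in mutants, with no overlap on either. The mean of the 9 measured hepatocyte markers stayed between -0.16 and 0.09 of the control mean on every array. Over all probe sets, 1505 were higher and 1917 lower in mutants at an adjusted p under 0.05 (limma, Benjamini-Hochberg), which is 13.2% of those tested, and these counts were 1078 and 1058 without control replicate 5. Over the fits that leave out 1 array they ran from 776 to 2115 and from 770 to 3194, lowest without mutant replicate 4 and highest without mutant replicate 5. On the first principal component (46.8% of the variance) controls lay from -45.8 to -25.6, mutant replicates 1 to 4 from 33.4 to 62.2, and mutant replicate 5 at -15.4. In the clock genes control replicate 5 stood apart, and the members' differences on their brightest probe sets are given with and without it. The values of 4 member probe sets, 2 of Per2 and 1 each of Per3 and Nr1d2, lay below 3.60 on all 10 arrays. That value, the 25th percentile of all values, is called the floor. It is a convention and not a detection limit. None of the hepatocyte markers measured lay below it on all arrays.

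Cry2 was the clock gene that rose in mutant liver. It encodes a cryptochrome, a repressor of ARNTL and CLOCK in the E-box loop. Its probe set read 9.15, 8.95, 9.03, 9.29 and 8.97 in control replicates 1 to 5 and 9.65, 9.85, 9.59, 9.91 and 9.62 in mutant replicates 1 to 5. All 5 mutants lay above all 5 controls, as was the case, in that direction, for 5.0% of all probe sets (5.32% had all mutants below all controls). Mutants averaged 9.72 ± 0.15 (SD, n = 5) and controls 9.08 ± 0.14 (SD, n = 5). They differed by 0.65 (SE 0.09, 95% interval 0.45 to 0.85), or 1.57-fold if the scale is log2, with an adjusted p of 0.00689 by limma. Without control replicate 5 the difference was 0.62 (SE 0.10, adjusted p = 0.0166). Leaving out any 1 array left the adjusted p between 0.00214 and 0.0188. Mutant replicate 5, whose profile as a whole stood nearest to the controls, read 9.62 in Cry2, above mutant replicate 3 and below the other mutants, and above all controls.

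Of the 10 members, each read on its brightest probe set, Cry2 was the 1 called higher and 0 were called lower, against 7.29% and 9.56% of all genes. Over all 19 member probe sets the count was also 1 higher and 0 lower, against 5.8% and 7.39% of all probe sets. A count of 1 in 10 is near the background, so it is no result about the clock genes as a group. At an unadjusted p under 0.05 there were 2, Cry2 and Per2, where 35.0% of all genes and 28.7% of all probe sets passed that mark, so this count lay below the background too. Over all 10 arrays the median difference of the 10 members was 0.20, beside -0.01 for all genes. This median includes control replicate 5. Without that array Arntl turned positive (0.24), while Per3, Nr1d1 and Dbp turned negative (-0.40, -0.009 and -0.37).

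**Figure D1:**
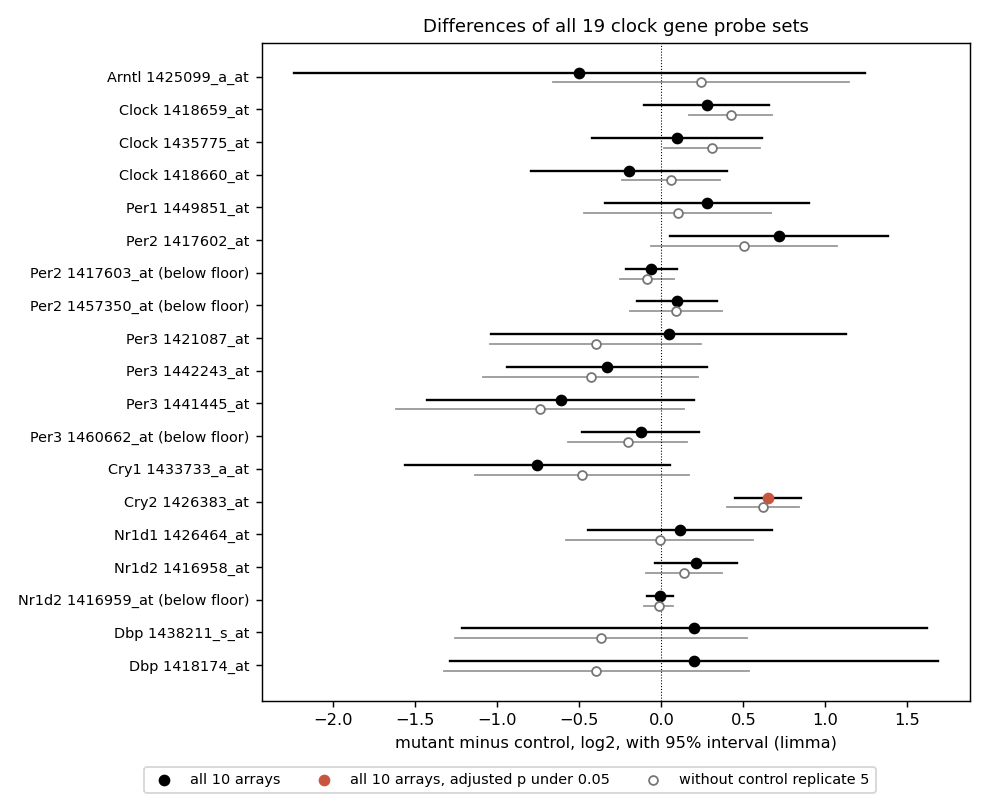
Mutant minus control differences on the log2 scale for all 19 clock gene probe sets, with 95% intervals from limma, over all 10 arrays (filled) and without control replicate 5 (open). The Cry2 interval lies above 0 in both fits (0.45 to 0.85 and 0.40 to 0.84), and the values of Arntl, 1 Clock probe set, the brightest Per3 probe set, Nr1d1 and Dbp change sign when control replicate 5 is left out.

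Cry1, the paralogue of Cry2, did not pass the test. It read 6.41, 6.26, 6.43, 6.22 and 7.69 in controls and 5.40, 5.06, 6.47, 5.996 and 6.31 in mutants. Control replicate 5 was the highest of all arrays, mutant replicates 1, 2 and 4 lay below all controls, and mutant replicates 3 and 5 lay among the controls. The difference was -0.76 (SE 0.36, 95% interval -1.56 to 0.05, adjusted p = 0.202 by limma), and it was -0.48 (adjusted p = 0.332) without control replicate 5. On the plot of Cry2 against Cry1 the groups separate along the Cry2 axis and not along the Cry1 axis.

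**Figure D2:**
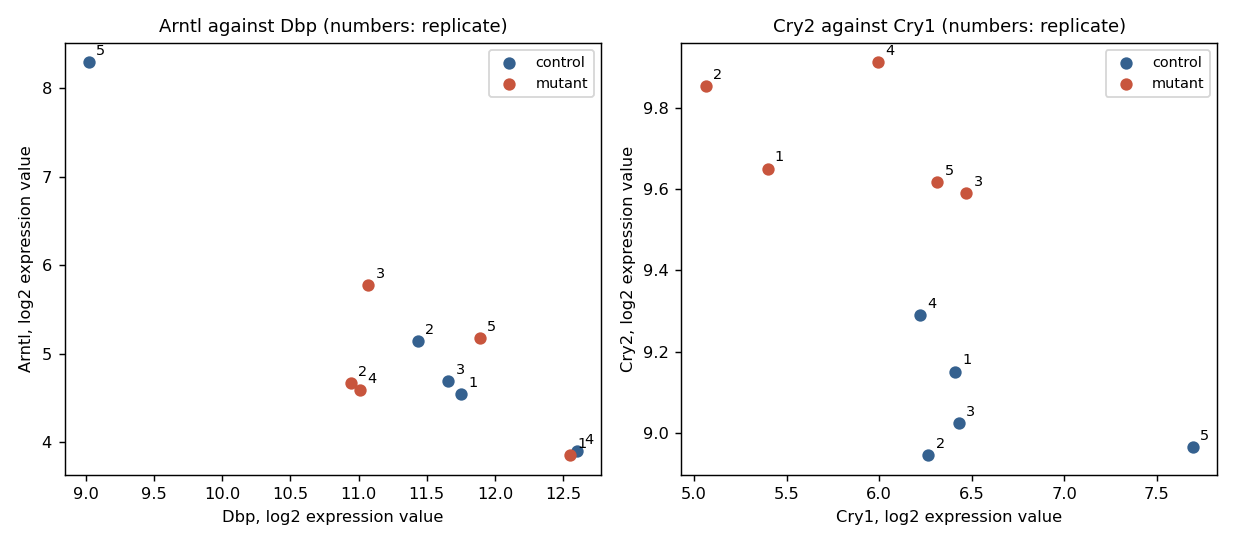
Left, the log2 expression value of Arntl against that of Dbp, and right, Cry2 against Cry1, with 1 point for each liver and its replicate number. Control replicate 5 stands alone with Arntl at 8.29 and Dbp at 9.02, and the mutants lie above the controls in Cry2, at 9.59 or more against 9.29 or less.

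The activators Arntl and Clock showed no called difference. Arntl, the partner of CLOCK in the E-box activator, read 4.55, 5.14, 4.69, 3.90 and 8.29 in controls and 3.86, 4.67, 5.77, 4.59 and 5.18 in mutants. A single liver, control replicate 5, was far above the rest, and the groups overlapped over the 9 other arrays. The difference was -0.50 (SE 0.77, adjusted p = 0.754 by limma) with all arrays and 0.24 (SE 0.39, adjusted p = 0.777) without that array.

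Clock was read by 3 probe sets, on each of which control replicate 5 was the highest array. The brightest read 8.23, 8.24, 8.25, 8.17 and 8.96 in controls and 8.36, 8.73, 8.92, 8.75 and 8.48 in mutants. All 5 mutants lay above control replicates 1 to 4, which were within 0.09 of each other, and only control replicate 5 was higher. The difference was 0.28 (SE 0.17, adjusted p = 0.331 by limma), and without control replicate 5 it was 0.42 (SE 0.11, adjusted p = 0.0536). Among the alternatives run it passed only when mutant replicate 5 was left out as well (0.46, adjusted p = 0.0305), a setting chosen after the values were seen. The other 2 probe sets differed by 0.09 and -0.20, or by 0.31 (adjusted p = 0.164) and 0.06 (adjusted p = 0.848) without control replicate 5.

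The Per genes, which encode the partners of the cryptochromes in the repressor complex, also gave no call. Per1, which responds quickly to outside signals, read 8.31, 7.51, 8.34, 8.80 and 7.34 in controls and 8.27, 8.30, 8.57, 8.59 and 7.96 in mutants. The mutants lay inside the range of the controls (difference 0.28, SE 0.28, adjusted p = 0.586 by limma). The difference was 0.10 (adjusted p = 0.876 by limma) without control replicate 5.

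Per2 read 6.23, 6.16, 6.70, 7.23 and 5.51 in controls and 7.50, 6.87, 6.73, 7.06 and 7.25 in mutants on its brightest probe set. Every mutant lay above 4 of the controls, and control replicate 4 lay among the mutants. The difference was 0.72 (SE 0.30, 95% interval 0.05 to 1.38) with an unadjusted p of 0.0378 and an adjusted p of 0.147 by limma, and it was 0.50 (adjusted p = 0.241) without control replicate 5. Its other 2 probe sets lay below the floor, at 2.09 to 2.45 and 1.91 to 2.49, with differences of -0.06 and 0.10 (adjusted p = 0.638 and 0.640).

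Per3 read 7.59, 7.10, 7.66, 8.01 and 5.37 in controls and 7.80, 6.47, 7.47, 6.99 and 7.22 in mutants on its brightest probe set. Control replicate 5 was again apart, this time at the low end. The difference was 0.04 (SE 0.48, adjusted p = 0.987 by limma) with it and -0.40 (SE 0.28, adjusted p = 0.422) without it. The next 2 probe sets of Per3 differed by -0.33 and -0.61, with control replicate 2 the highest on both, and neither passed (adjusted p = 0.489 and 0.313).

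Nr1d1 and Nr1d2, the REV-ERB repressors of the ROR element arm, overlapped between the groups. Nr1d1 read 7.24, 7.71, 7.13, 7.51 and 6.78 in controls and 8.13, 7.07, 7.17, 6.97 and 7.61 in mutants, differing by 0.11 (SE 0.25, adjusted p = 0.846 by limma). Mutant replicate 1 was the highest and control replicate 5 the lowest, and without the latter the difference was -0.009 (adjusted p = 0.992 by limma). Nr1d2 read 12.58, 12.34, 12.59, 12.77 and 12.21 in controls and 12.91, 12.61, 12.55, 12.76 and 12.70 in mutants on its brighter probe set, differing by 0.21 (SE 0.11, adjusted p = 0.258). The same 2 livers stood at the ends. The Nr1d2 difference was 0.14 (adjusted p = 0.444 by limma) without control replicate 5.

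Dbp, an output factor with a wide daily swing, gave nearly the same picture on both of its probe sets. The brighter read 11.75, 11.44, 11.66, 12.60 and 9.02 in controls and 12.55, 10.94, 11.07, 11.01 and 11.89 in mutants. Mutant replicates 2, 3 and 4 lay below control replicates 1 to 4, mutant replicate 1 lay beside control replicate 4, and control replicate 5 was the lowest of all. The difference was 0.20 (SE 0.63, 95% interval -1.22 to 1.62, adjusted p = 0.910 by limma), and without control replicate 5 it was -0.37 (95% interval -1.26 to 0.52, adjusted p = 0.625). These intervals are wide: a difference of 1 in either direction lies inside the first.

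**Figure D3:**
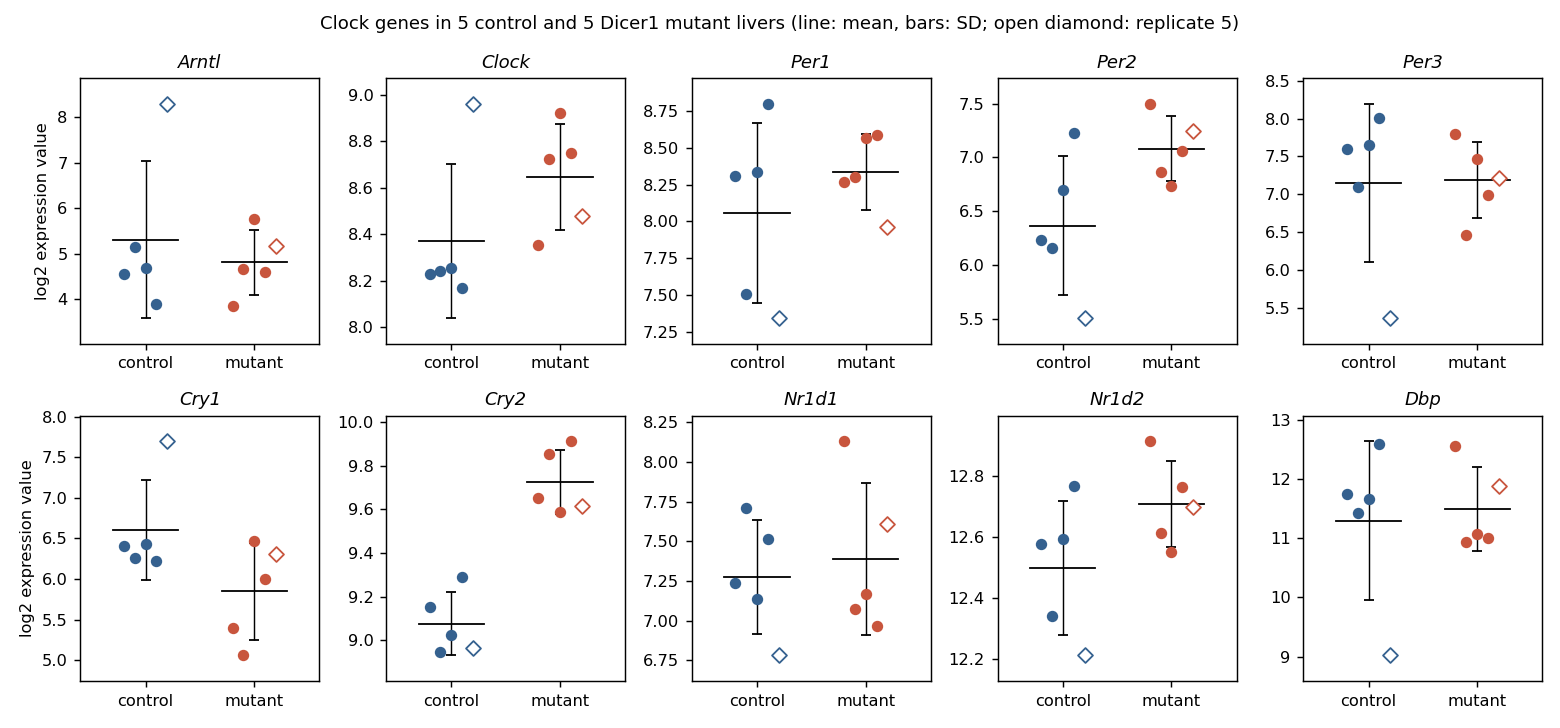
Log2 expression value (vertical axis, 1 scale per panel) of each clock gene on its brightest probe set in 5 control and 5 mutant livers, with the mean as a line and the SD as bars. The open diamonds are replicate 5 of each group; for Arntl, Clock and Cry1 the control diamond is the highest point, and for Per1, Per2, Per3, Nr1d1, Nr1d2 and Dbp it is the lowest.

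The per-array pattern centred on 1 control liver. On the brightest probe sets control replicate 5 was the highest of all 10 arrays for Arntl, Clock and Cry1. It was the lowest for Per1, Per2, Per3, Nr1d1, Nr1d2 and Dbp. It thus stood at an end of the range for 9 of 10 members, while it did so for 24.8% of all genes. Mutant replicate 1 and control replicate 4 followed with 4 members each. On the next Per3 probe sets mutant replicate 2 was the lowest instead, at 5.48 and 4.85, with control replicate 5 at 5.96 and 5.77. Against the mean of the other 4 controls, control replicate 5 was higher by 3.72 in Arntl, by 1.36 in Cry1 and by 0.74 in Clock. In Dbp and Per3 the difference was -2.84 and -2.22. By size the Arntl gap ranked 17 among those of all 25958 probe sets in that liver. Cry2 showed no such gap (-0.14). Dicer1 in that liver read 8.04 and 8.12, as in the other controls.

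**Figure D4:**
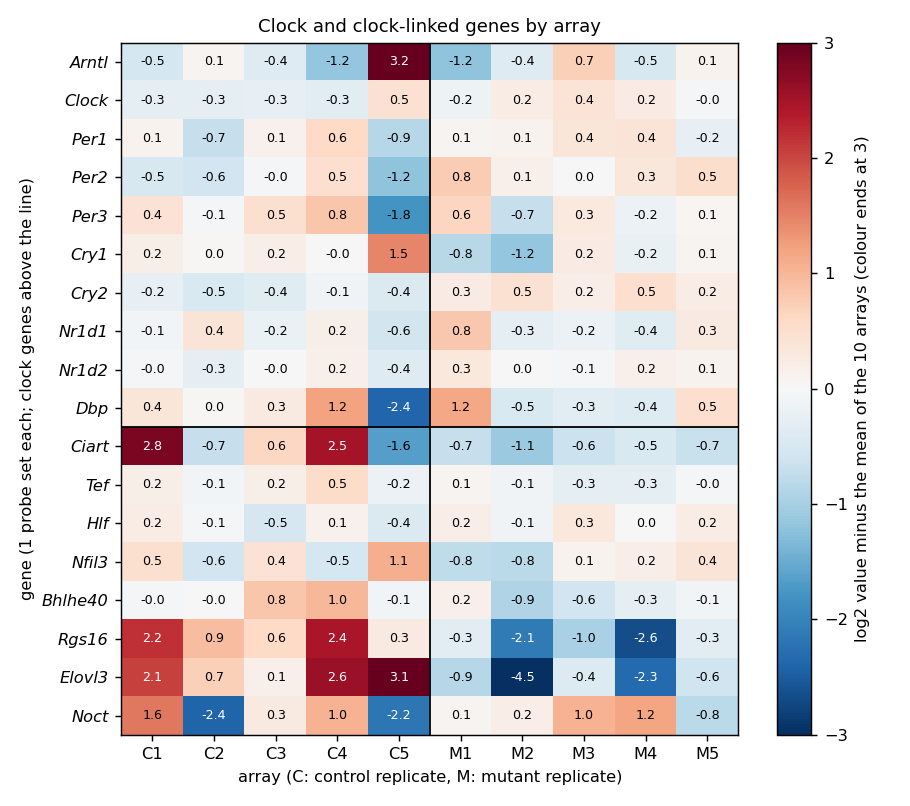
Log2 value minus the mean of the 10 arrays for the 10 clock genes (above the line) and 8 clock-linked genes (below it), with 1 column for each array (C1 to C5 controls, M1 to M5 mutants). Colours stop at 3 in either direction. Column C5 holds the highest Arntl value and the lowest Dbp value, and Rgs16 and Elovl3 are low in all 5 mutant columns.

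No clock time of collection was found in the labels, so an effect of genotype and one of time of day cannot be told apart for a gene that follows the clock. Signals that can reset the clock were read from lists of their target genes. Control replicate 5 lay inside the range of the other controls for the mean of the 9 fasting genes (-0.04, with controls from -0.62 to 0.52), the 10 glucocorticoid genes (-0.00, from -0.87 to 0.60) and the 7 temperature genes (0.07, from -0.18 to 0.16), as it did for the 7 immediate early genes (0.11, from -0.45 to 0.79). A list mean can hide opposite moves. Among temperature genes, control replicate 5 was the highest control on every Hsp90aa1 probe set (12.60 on the brightest). It was the lowest control on every Hspa1b probe set (9.39 on the brightest). In Cirbp it read 7.92, inside the range of the other controls (7.27 to 8.13). The part of these signals in that liver was not tested.

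The spread between control livers was large for most members. In controls the SD of Arntl was 1.72, larger than that of 99.8% of all probe sets, and the SD of Dbp was 1.34 (99.5%) and of Per3 1.05 (98.9%). Without control replicate 5 these fell to 0.51, 0.51 and 0.37 (93.9%, 93.8% and 87.8%). The SD of Clock went from 0.33 (83.0%) to 0.04 (16.8%), and that of Cry1 from 0.62 (95.8%) to 0.10 (38.7%). Per1 and Per2 stayed large, going from 0.61 (95.7%) to 0.54 (94.5%) and from 0.64 (96.2%) to 0.50 (93.4%). Nr1d1 went from 0.36 (85.4%) to 0.26 (76.4%) and Nr1d2 from 0.22 (66.1%) to 0.17 (59.0%). Among mutants the SD was 0.71 for both Arntl and Dbp (96.1% and 96.0%) and 0.60 for Cry1 (94.0%), with Per3 (90.7%) and Nr1d1 (89.6%) next. The mutant SDs of Per2 (73.5%), Per1 (65.4%), Clock (59.3%) and Nr1d2 (38.2%) were not among the large ones. Cry2 lay near the middle of all probe sets, with an SD of 0.14 in controls (46.0%) and 0.15 in mutants (39.9%). Its control SD was 0.15 (52.1%) without control replicate 5.

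Several members varied with Dbp within the groups. After each group's mean was subtracted, the correlation with Dbp over the 10 arrays was 0.94 for Per3, 0.90 for Per2, 0.85 for Nr1d2 and 0.76 for Nr1d1, and it was -0.95 for Clock, -0.91 for Arntl and -0.65 for Cry1. Rank correlations were 0.92, 0.83, 0.82, 0.83, -0.92, -0.79 and -0.41 in the same order. Without control replicate 5, over the other 9 arrays, the values were 0.77, 0.83, 0.79, 0.77, -0.84, -0.66 and -0.14, so Cry1 and Arntl moved most and Nr1d1 least. Per1 stood at 0.57 over 10 arrays and 0.15 over 9, and Cry2 at 0.24 and -0.02. Over 8 arrays, without control replicate 4 as well, the values were 0.75 for Per3, 0.74 for Per2, 0.68 for Nr1d2, 0.82 for Nr1d1, -0.91 for Clock, -0.61 for Arntl, -0.17 for Cry1, -0.22 for Per1 and -0.43 for Cry2. The sign for Per1 and Cry2 thus depended on the arrays included. All these values are from the brightest probe set of each gene. Dimmer Per3 probe sets above the floor stood at 0.55 and 0.54 over 10 arrays, and at 0.51 and 0.50 without control replicate 5. The dimmer Clock probe sets stood at -0.93 and -0.85 over 10 arrays, and at -0.75 and -0.38 without control replicate 5. These are descriptions over few arrays that share 1 normalization.

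Among the 6081 genes ranked, those whose mean reached the median over genes (7.63), the most like Dbp in this measure were Ctse (0.92), an aspartic protease, Atf4 (0.91), the stress response transcription factor, Bnip3 (0.89), a mitochondrial protein, Wdr77 (0.89) and Eef1e1 (0.88). Over 9 arrays, without control replicate 5, their values were 0.70, 0.66, 0.69, 0.86 and 0.77. The place of Ctse rests on its brighter probe set, where control replicate 5 read 5.02. On the dimmer Ctse probe set that liver read 8.53, inside the range of the other controls (3.37 to 8.96). Those most opposed were Sigirr (-0.96), an inhibitor of interleukin receptor signalling, Clock (-0.95), Ypel2 (-0.93), Gldc (-0.92), the glycine decarboxylase of mitochondria, and Ccng2 (-0.91), a cyclin-like gene. Over 9 arrays these stood at -0.88, -0.84, -0.77, -0.87 and -0.72. Clock was thus the only member to fall among the named genes. Arntl, Per2, Per3, Cry1 and Nr1d1 had means below that median and were not ranked.

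The other genes of the clock pathway gave no call on their brightest probe sets. Of 23 listed, 16 were measured, 0 were higher and 0 lower by limma, 5 had an unadjusted p under 0.05 (35.0% of all genes did), and 2, Rorb and Fbxl21, lay below the floor on all arrays. The rest of the list was not analysed here. The 5 are a share near that background and are named, after their values were seen, only to account for the count: the kinase gene Csnk1e (0.89, unadjusted p = 0.0116, adjusted p = 0.0692), the kinase gene Gsk3b (0.21), the repressor Bhlhe40 (-0.68), Tipin (-0.53) and the corepressor enzyme gene Hdac3 (-0.21). A dimmer probe set was called by limma for Rora (1 of 7, 0.47, adjusted p = 0.0367), Tef (1 of 2, -0.58, adjusted p = 0.0436, and 0.0650 without control replicate 5) and Csnk2a1 (1 of 6, -0.96, adjusted p = 0.00579), where the brightest was not.

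Ciart, whose E-boxes are shown above, spread widely in controls and little in mutants. It read 8.95, 5.42, 6.73, 8.60 and 4.48 in controls and 5.43, 5.00, 5.47, 5.65 and 5.45 in mutants. The SD was 1.95 in controls and 0.24 in mutants, and the difference was -1.43 (SE 0.81, adjusted p = 0.292 by limma), or -2.02 (adjusted p = 0.0982) without control replicate 5. The difference in spread was not tested.

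Of the PAR bZIP relatives of Dbp, Tef differed by -0.25 (SE 0.14, adjusted p = 0.277 by limma) and Hlf by 0.25 (SE 0.16, adjusted p = 0.346). Nfil3, which competes with them for D-boxes and is itself held down by the REV-ERB repressors, read 8.41, 7.35, 8.37, 7.39 and 9.02 in controls and 7.16, 7.13, 8.03, 8.13 and 8.31 in mutants. Control replicate 5 was the highest here too, as for Arntl, Clock and Cry1.

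Among rhythmic liver genes downstream of the clock, 2 of 18 measured fell and 0 rose, and the median difference was -0.12. The share that fell is near the 9.56% of all genes called lower, and 7.29% were called higher. The 2 genes were Rgs16, a regulator of G protein signalling, and Elovl3, a fatty acid elongase. Rgs16 read 12.24, 10.95, 10.64, 12.48 and 10.30 in controls and 9.69, 7.92, 9.08, 7.39 and 9.70 in mutants, differing by -2.56 (SE 0.60, adjusted p = 0.0261 by limma). Its 3 probe sets were all called, from -3.51 to -2.26. The adjusted p rose above 0.05 when control replicate 1 (0.0568) or 4 (0.0576), or mutant replicate 2 (0.0607), 3 (0.0503) or 4 (0.0566), was dropped. Control replicate 5 was the lowest control for Rgs16 and the highest for Elovl3.

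Elovl3 read 9.66, 8.33, 7.75, 10.20 and 10.73 in controls and 6.75, 3.15, 7.20, 5.28 and 7.01 in mutants, differing by -3.46 (SE 0.88, adjusted p = 0.0345 by limma). Mutant replicate 2 lay below the floor. The adjusted p rose above 0.05 when control replicate 1 (0.0693), 4 (0.0771) or 5 (0.0727), or mutant replicate 1 (0.0553) or 4 (0.0798), was dropped. Noct, a rhythmic phosphatase gene, read 11.19, 7.20, 9.87, 10.64 and 7.43 in controls and 9.68, 9.79, 10.64, 10.77 and 8.78 in mutants, with 2 controls below all mutants (difference 0.67, SE 0.83, adjusted p = 0.679).

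The lists of clock-resetting signals and of cell markers are read against the same background, with 7.29% of all genes called higher and 9.56% lower. Of 10 measured glucocorticoid target genes, 0 were called in either direction by limma, with Klf9 alone at an unadjusted p under 0.05 (0.19, unadjusted p = 0.0292), against 35.0% of all genes. Tsc22d3 differed by -0.58 (adjusted p = 0.278) and Fkbp5 by 0.18 (adjusted p = 0.742). Of 9 fasting genes, 2 were higher, the kinase gene Pdk4 at 2.79 (SE 0.78, adjusted p = 0.0462) and the insulin signalling gene Irs2 at 1.16 (SE 0.32, adjusted p = 0.0459). These 2 calls rest on all arrays being present: between 0 and 1 of the list was called when any 1 array was left out.

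Of 7 temperature-responsive genes, 2 were higher, Hsp90aa1 and Serpinh1 (0.68), and 1 lower. The chaperone gene Hsp90aa1 rose by 0.85 (SE 0.18, adjusted p = 0.0207 by limma), and Hspa1b, which can share signal with its near-identical copy Hspa1a, fell by 1.10 (SE 0.26, adjusted p = 0.0287). Hsp90aa1 was lost without control replicate 3 (adjusted p = 0.0507). Hspa1b was lost without any 1 of control replicates 1 to 4 or mutant replicates 1, 2 and 4 (up to 0.0698). Serpinh1 was lost in 8 of 10 such fits, without any 1 of control replicates 1 to 4 or mutant replicates 1 to 4 (up to 0.0750). Cirbp, an RNA-binding protein gene that responds to cold, differed by -0.41 (adjusted p = 0.594). Of 7 immediate early genes, 0 were called, and 2 had an unadjusted p under 0.05, Jun (1.305) and Atf3 (1.13). The part of these signals in the Cry2 difference was not tested.

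Markers of other liver cells moved with the groups as well. In bulk tissue a change in the share of a cell type and a change in RNA per cell cannot be told apart. Of 11 Kupffer cell and macrophage markers 5 were higher and 0 lower (between 0 and 5 without any 1 array, with 0 without mutant replicate 4 and 2 without control replicate 5), with Clec4f at 0.59 and Lyz2 at 1.05. The mean of the list ran from -0.62 to 0.33 in controls and from 0.37 to 0.89 in mutants. Of 9 stellate cell and matrix markers 4 were higher (between 2 and 7), with Pdgfrb at 0.57 and Reln at 0.72, and the list ran from -0.15 to 0.17 in controls and from 0.33 to 0.87 in mutants. Of 10 endothelial markers 1, Lyve1, was lower (-0.95, with 0 called without control replicate 5). Of 6 biliary markers 1, Prom1, was higher (4.03), and of 9 hepatocyte markers 1, Ambp, was lower (-0.16). The Ambp call was lost in 7 of 10 fits without 1 array (control replicates 1 to 4 or mutant replicates 1 to 3, adjusted p up to 0.0752 by limma), with array medians subtracted (0.292), with dim probe sets left out (0.0964) and with the replicate block (0.107). Of 5 lymphocyte and 3 erythroid markers 0 were called, with 2 and 0 at an unadjusted p under 0.05 by limma, and Nkg7 lay below the floor on all arrays. At an unadjusted p under 0.05 by limma, 10 Kupffer cell and macrophage, 7 stellate and 2 biliary markers were higher. At the same mark 4 endothelial and 2 hepatocyte markers were lower, and 35.0% of all genes passed it in either direction. Differences ran from 0.20 to 1.05 for Kupffer cell and macrophage markers, from 0.29 to 1.13 for stellate ones and from -0.95 to -0.05 for endothelial ones. The part of these cells in the Cry2 difference was not tested.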

How the data were processed

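Total liver RNA was amplified and labelled with biotin, per the labels' protocols, and hybridised to Affymetrix mouse arrays, judging by how probe sets are named. The deposited table holds 1 value per probe set and array, taken here as log2 because values span 0.27 to 16.7, with array medians from 6.40 to 6.67. How the authors corrected background and normalized is not stated in the labels. Detection calls were not used, and 5 arrays a group limit the precision.

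After 37 control probe sets were left out, 25958 were tested, of which 21613 carry 1 symbol in the platform annotation. Genes are read on their brightest probe set. The groups were compared by limma 3.58.1 (lmFit, eBayes; R 4.3.3). Two-sided p-values were adjusted by Benjamini-Hochberg over every probe set, and 0.05 was the threshold. Replicates are separate livers in the labels, and p-values measure the spread between these.

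Named were all members, fixed clock-linked genes, called genes of smallest p in each list, and the 5 genes most and least like Dbp. Members and lists were chosen with earlier results of these data known. On simulated data for 25958 probe sets the fit recovered 21 of 50 changes of 0.5, 35 of 50 of 1 and 49 of 50 of 2, with 12 unchanged ones among 167 called. In the real data 3422 were called, so the adjusted threshold stood for a stricter unadjusted p in the simulation. The recovered shares therefore do not carry over directly to the real comparison. Alternatives were other normalizations, filters on dim probe sets, other limma options, the replicate number as a block, and leaving out arrays.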

Additional observations from a re-analysis of the deposited data

Results flagged for a closer look

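In a group of 5 livers a value was set apart when its gap to the nearest other liver exceeded 0.71 of the whole range. Over 104 groups of values tested, 13 were set apart, or 12.5%. Chance gives about 1 in 20 groups for normal values, but over all probe sets 11.3% of such groups were set apart, so the total is near that background. On member probe sets control replicate 5 accounted for 5 of 9. It also accounted for Ypel2, Ccng2 and Ctse, which were chosen for their likeness to Dbp, a measure that control replicate 5 enters, and so add no support. It was the highest control for Arntl (gap of 0.717 of the range), Clock (0.891 and 0.874 on 2 probe sets), Cry1 (0.857), Ypel2 (0.792) and Ccng2 (0.824). It was the lowest for Dbp on its dimmer probe set (0.718) and for Ctse on its brighter one (0.748). Over all probe sets the same measure set control replicate 5 apart for 2.99% and each of the other controls for 1.39% to 2.57%. Control replicate 1 was the highest control for Fkbp5 (0.750). The other 4 lay below the floor on all arrays: Per2 with control replicate 4 highest (0.780) and mutant replicate 1 highest (0.954), Per3 with mutant replicate 5 highest (0.715), and Nr1d2 with control replicate 3 highest (0.768).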

How the results depend on the processing

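Cry2 kept its direction and its call under all 18 alternatives run: quantile normalization, subtraction of array medians, no dim probe sets, 1 probe set per gene, trend and robust options, array weights, the replicate block, each array left out and both replicates 5 left out. Its differences ran from 0.59 to 0.70 and its adjusted p from 0.00214 to 0.0235, the highest with the replicate block. Leaving out 1 array gave 1 member higher and 0 lower throughout. Without both replicates 5 there were 2 members and 2 member probe sets higher, the second being Clock. For uncalled members and for Ctse, a gene named for its likeness to Dbp, signs turned with array weights (Per3 -0.070, Dbp -0.050 and -0.047, Ctse -0.0092), with array medians subtracted (the dim Nr1d2 probe set, 0.0040), and without both replicates 5 (Arntl 0.15, Clock 0.11, Per3 -0.41, Nr1d1 -0.064, Dbp -0.47 and -0.53, Ctse -0.57). Leaving out 1 array moved Arntl between -0.85 and 0.24, the Clock probe sets between -0.0042 and 0.31 and between -0.29 and 0.060, the brightest Per3 between -0.40 and 0.26, Nr1d1 between -0.071 and 0.22, Dbp between -0.37 and 0.53 and between -0.40 and 0.53, and Ctse between -0.59 and 0.87. The dim probe sets ran from -0.085 to 0.0046 and from -0.016 to 0.13 (Per2), from -0.20 to 0.027 (Per3) and from -0.018 to 0.012 (Nr1d2). The correlation of Cry2 with Dbp was -0.015 without control replicate 5.
Same-numbered livers' deviations from their group means correlated from -0.18 to 0.15, and 1 control correlated best with the mutant of its own number. These values cannot show whether same-numbered livers shared a litter or a batch, which the labels do not give. With the replicate block 907 probe sets were higher and 1342 lower, and 0 fasting, 0 temperature and 1 downstream gene (Elovl3) were called. Without 1 array the totals ran from 776 to 2115 and from 770 to 3194, other clock genes from 0 to 0 higher and 0 to 1 lower, downstream genes from 0 to 2 lower, fasting genes from 0 to 1 higher, temperature genes from 0 to 2 higher and 0 to 1 lower, and immediate early genes from 0 to 1 higher. With array medians subtracted, dim probe sets left out, array weights, or both replicates 5 left out, 1 other clock gene was higher. With dim probe sets left out or 1 probe set per gene, 1 immediate early gene was higher. Without both replicates 5, 1 fasting gene was higher and 1 downstream gene lower. The causes were not tested.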
